A study of Parasteatoda tepidariorum with 16 samples.

Results

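The central and peripheral cells of the nascent germ disc of the spider *Parasteatoda tepidariorum* were compared at stage 3, across every gene that reached 1 CPM (reads scaled to an equal library size) in at least 1 of 5 RNA-seq libraries. This rule kept 10202 of the 27990 genes in the count table, and 5 of the 16 libraries of the series. Of the genes left out, 17159 had no count in any of the 5 libraries and 629 had some counts. The gene just inside the rule had a largest CPM of 1.05 and the gene just outside had 0.965.

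The libraries formed a pair of groups, with 2 of central cells (c1 and c2, c cells) and 3 of peripheral cells (p1 to p3, p cells). All embryos were wild type, of the Osaka isolate, kept without treatment and about 20 h after egg laying, and the labels give the same mother for all 5 libraries. Each library was made from a small pool of cells drawn up with a glass capillary, for which the labels give 10 to 100 cells over all stages. The libraries of a group are described as biological replicates, but the labels do not say whether they came from separate embryos, so the p-values measure the spread between these libraries, which may be technical. Intermediate (i) cells of stage 3 came from another mother and entered no test between c and p cells. Cells of stage 4 and early stage 5, each from a further mother, were used as separate libraries for the genes found at stage 3.

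The spider egg first forms a layer of cells around the yolk, and cells on one side then gather into the germ disc. The centre of the disc corresponds to the embryonic pole, and the rim to the periphery of the later germ disc. In this species the rim expresses *Pt-hh*, the spider *hedgehog* gene, and the Hedgehog signal patterns the axis from the rim toward the centre. Levels in such pools are the product of how many cells of a type were drawn and how much RNA each cell held, and fewer cells of a type and less RNA per cell cannot be told apart.

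Between 8487511 and 10500376 reads per library fell on genes. A count of 0 could stand for up to 3 counts, which is 0.276 to 0.362 CPM depending on the library. The cDNA was amplified by PCR and carried no molecular identifiers, so the floor covers counting error alone. The number of genes at 1 CPM was 8236 in c1 and 5653 in c2, and ran from 5466 to 7023 in the p libraries. Only 3259 genes (31.9% of those tested) reached 1 CPM in all 5 libraries, and 2405 (23.6%) did so in a single library. The share of genes lost from one library to the next had a similar range within and across groups. Of 7162 genes at 10 CPM in c1, 2403 (33.6%) had 3 counts or fewer in c2, and 2394 (33.4%) had as few in p3. Pearson's r between 2 libraries, across genes and on a log2 scale, was 0.62 for c1 with c2, 0.60 to 0.65 within p, and 0.56 to 0.68 across the groups.

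In the comparison of c with p cells, 25 genes passed an adjusted p of 0.05, which is 0.245% of the genes tested. All 25 were higher in c cells. They comprised 4 transcription factor genes of the Ets, GATA, twist and homeobox families, a transcription factor EB-like gene, genes for enzymes, secreted or membrane proteins, an actin, a heat shock protein, and 9 genes without a characterized product. By the same test, the quasi-likelihood test of edgeR with adjustment after Benjamini and Hochberg, no gene was higher in p cells. An unadjusted p under 0.05 was reached by 276 genes on the c side (2.71%) and 88 on the p side (0.863%). The likelihood ratio test of edgeR also gave 0 genes higher in p cells, whereas the Wald test of DESeq2 gave 619 (6.07%) and called 313 (3.07%) higher in c cells. Of the 25 genes, 11 passed with DESeq2 and 11 with the likelihood ratio test. With DESeq2 these were *g4238*, *g26874*, *g14287*, *g27884*, *g13797*, *g17735*, *g15167*, *g16467*, *g2672*, *g876* and *g132*. The others of the 25 did not pass with DESeq2, where *g27313* had no adjusted p. Below, a gene that passed did so by the quasi-likelihood test unless DESeq2 is named. The common biological coefficient of variation was 1.92, and the lowest adjusted p among genes higher in p cells was 0.163.

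**Figure D1:**
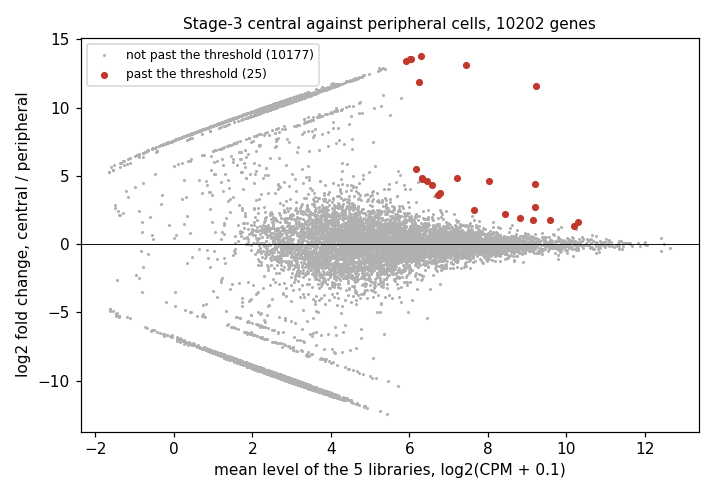
Log2 fold change between c and p cells (vertical axis, positive when higher in c cells) against the mean level of the 5 libraries as log2(CPM + 0.1) (horizontal axis). Each point is a gene, and the 25 red points are those past the threshold, all above the line of no change. The dense diagonal bands are genes with counts in 1 group only, whose fold change depends on the count that edgeR adds.

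The median log2 fold change was 4.62 among the 25 genes and 0.06 among all genes tested. Their mean level in c cells ran from 150 to 2131 CPM, with a median of 351 CPM against 25.2 CPM for all genes tested. In 24 of the 25 genes both c libraries lay above every p library, an order that 1153 genes (11.3% of those tested) showed. The groups overlapped for *g27086*. In 6 of the 25 genes every p library had 3 counts or fewer, in 10 only some of the p libraries were that low, and in the other 9 all p libraries were at 10 CPM or above. The signal was not shared evenly by the c libraries. The c2 level was above that of c1 in 24 of the 25 genes, with a median ratio of 2.78, where the median over 7083 genes at a mean of 10 CPM was 0.875. In 5 genes over 90% of the summed c CPM lay in c2. Without c2, where c1 is assumed to vary as the p libraries do, 4 genes passed the threshold, without p1 13 and 1 that was higher in p cells, and without p2 11 and 1 that was higher in p cells. The 4 genes left without c2 were *g4238*, *g26874*, *g2628* and *g14287*, which also passed with any other library left out.

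**Figure D2:**
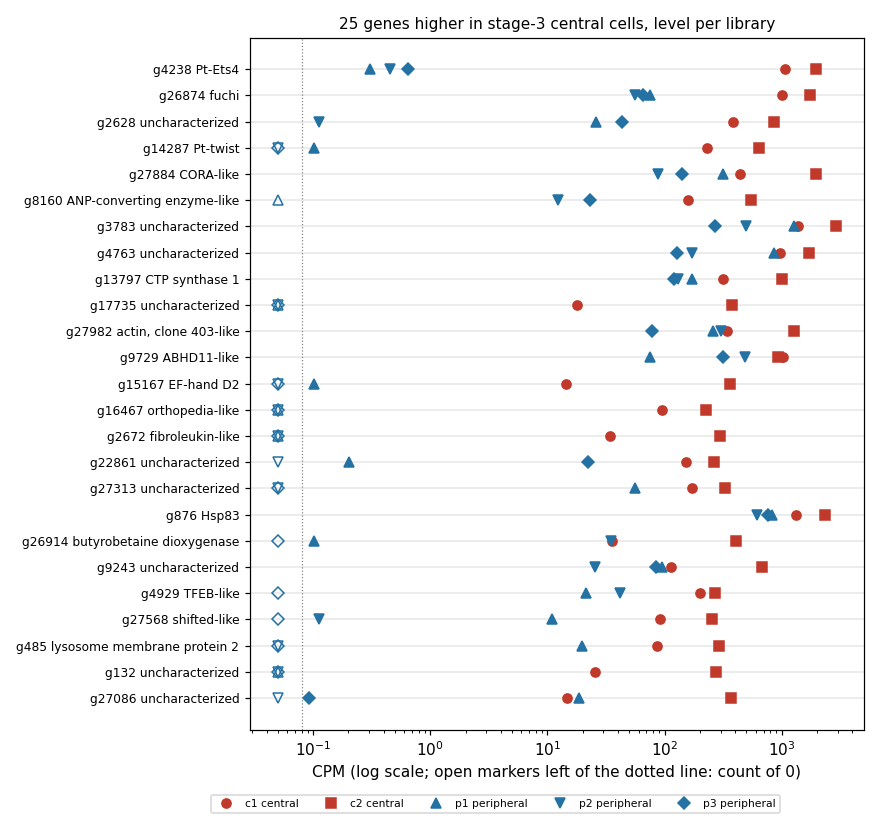
CPM of the 25 genes past the threshold in each library (log scale), c libraries in red and p libraries in blue, ordered by p from the top. Open markers left of the dotted line stand for a count of 0. The red markers lie to the right of the blue ones in each row but the lowest, and the c2 squares lie right of the c1 circles in 24 rows. The row labelled Pt-twist is *g14287*, which is annotated only as twist-related.

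The gene with the lowest p was *g4238* (*Pt-Ets4*, scaffold 540, bases 171886 to 200241, plus strand, of Ptep_1.0), which codes for an Ets domain protein, a family that binds DNA through a winged helix. Its level was 1058 CPM in c1 and 1952 CPM in c2, against 0.303, 0.45 and 0.645 CPM in p1, p2 and p3. The p values are only a few reads each, while both c libraries were above 1000 CPM. The log2 fold change was 11.59 ± 0.96 (standard error, taken as the fold change over the square root of the F statistic) with an adjusted p of 2.67e-29 (edgeR). No read of this gene was counted in any of the 3 i libraries.

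The GATA-like gene *fuchi* (*g26874*, scaffold 177, bases 310446 to 328722, plus strand), annotated as a GATA-4 transcription factor, belongs to a zinc finger family that has a part in endoderm in many animals. It was at 1008 and 1744 CPM in c1 and c2, and at 75.3, 55.6 and 65.4 CPM in p1, p2 and p3. Unlike *g4238* it was thus well above the floor in every p library, and its p libraries lay close together (65.5 ± 9.85 CPM, SD, n = 3). The log2 fold change was 4.38 ± 0.47, with an edgeR adjusted p of 8.26e-17. The i cells, from another mother, had no counts of it. By in situ staining at stage 3, the paper saw *fuchi* at the embryonic pole and also on the opposite (abembryonic) side of the embryo. The next gene on the scaffold, the GATA-like *g26875*, starts 4804 bases further on and was at 0.865 and 1.33 CPM in c cells and at 0 in p cells. Of the canonical GATA genes of this spider, *g20514*, *g1834*, *g8336* and *g25261* had no counts in any of the 5 libraries. The remaining one, *g8337*, was at 5.0 and 44.5 CPM in c cells and at 0 in p cells (adjusted p = 0.921, edgeR).

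The gene *g14287* (scaffold 1837, bases 234376 to 244584, minus strand), annotated as twist-related, codes for a basic helix-loop-helix factor. The *twist* gene of the fly directs mesoderm formation, and whether *g14287* is its counterpart was not tested. *g14287* was at 230 and 636 CPM in c cells, with 1 read in p1 and none in p2 and p3. Against the floor of 3 counts per p library, the mean c level was at least 1417-fold higher (adjusted p = 2.66e-08, edgeR). Each such bound below sets a group mean against the floor of the other group. It covers counting error alone, not reads lost from a library, and a single high library can carry it. The orthopedia-like homeobox gene *g16467* (scaffold 2238, bases 107277 to 194294, minus strand) codes for a factor known from the vertebrate hypothalamus. It was at 94.7 and 227 CPM in c cells and at 0 in every p library, at least 527-fold higher (adjusted p = 0.0236, edgeR). Its call was kept with 1 of the 5 libraries left out and lost with the other 4. The transcription factor EB-like gene *g4929* (scaffold 603, bases 32540 to 163394, minus strand) is related to a mammalian activator of lysosomal genes. It was at 201 and 270 CPM in c cells and at 21.3, 41.5 and 0 CPM in p cells (log2 change 3.57 ± 0.91, adjusted p = 0.0376, edgeR), and no call was left when any one library was removed.

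Of the 11 Ets and GATA family genes tested, 2 were past the threshold (beside 0.245% of all genes), and in 6 (54.5%) both c libraries lay above every p library (beside 11.3% of all genes). The median log2 fold change of these 11 genes was 4.38, beside 0.06 for all genes tested. Nothing is read from the share or the median, since some of these genes, such as *g26875*, passed the filter through c cells alone. DESeq2 called 4 of the 11 higher in c cells and 1 higher in p cells. Among 49 homeobox genes, *g16467* passed and 7 (14.3%) had both c libraries above every p library, a share near the 11.3% of all genes. Over all 49 homeobox genes, DESeq2 called 7 higher in c cells and 6 higher in p cells. Of the 7 with both c libraries above every p library, 3 with few or no reads in p cells passed with DESeq2 but not with edgeR. These 3, given next, were picked by the values that DESeq2 tested, so nothing is read from their calls. The 6 homeobox genes called higher in p cells are not described. The gene *g15298*, like *prospero* of the fly, a factor of neural and other cell fates, was at 36.9 and 129 CPM in c cells and at no more than 1.11 CPM in p cells. The *engrailed* homologue *g14050*, a segment polarity gene in the fly, was at 23.4 and 86.9 CPM in c cells and at no more than 0.101 CPM in p cells. *g9172*, named OTX2-A-like for a factor of anterior fates, was at 13.9 and 59.8 CPM in c cells and 0 in p cells. The group of basic helix-loop-helix, forkhead, Sox and T-box factors had 19 tested genes, of which *g14287* alone passed with edgeR, and 4 passed with DESeq2, 1 on the c side and 3 on the p side.

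Genes with a secreted or cell surface product made up a further set of the 25. The gene *g8160* (scaffold 876, bases 540024 to 632593, plus strand) is annotated as an atrial natriuretic peptide-converting enzyme, which in mammals is a serine protease of the cell surface. It was at 157 and 545 CPM in c1 and c2 and at 0, 12.3 and 23.2 CPM in p cells (log2 change 4.81 ± 0.90, adjusted p = 0.00015, edgeR). In the i cells of the other mother it was at 40.9, 182 and 109 CPM, above all p libraries. The fibroleukin-like gene *g2672* (scaffold 405, bases 682219 to 697079, minus strand) has a product of the fibrinogen-related kind. It was at 33.9 CPM in c1 and 294 CPM in c2, with no counts in p cells, so that the c mean was at least 537-fold higher (adjusted p = 0.0236, edgeR). The c1 level was thus far below that of c2, though still above every p library.

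The *shifted*-like gene *g27568* (scaffold 223, bases 86936 to 133880, plus strand) is related to the fly gene whose secreted product helps Hedgehog to spread in the wing. It was at 91.7 and 255 CPM in c cells and at 10.9, 0.112 and 0 CPM in p cells (log2 change 5.50 ± 1.40, adjusted p = 0.0376, edgeR). Its 3′ end overlaps the next gene on the same strand, *g27569*, by 644 bases, and reads in that stretch cannot be assigned with certainty. The gene *g485* (scaffold 250, bases 526296 to 656740, plus strand) is annotated as lysosome membrane protein 2, in mammals a receptor that carries an enzyme to the lysosome. It was at 86.5 and 290 CPM in c cells and at 19.7, 0 and 0 CPM in p cells (log2 change 4.78 ± 1.22, adjusted p = 0.0376, edgeR). Among the 41 lysosomal, cathepsin and vitellogenin genes tested, *g485* was the single gene past the threshold with edgeR, 4 genes passed on the c side and 3 on the p side with DESeq2, and the median log2 fold change was 0.27. The vitellogenin-like *g18714*, for a yolk protein, was at 16.6 and 155 CPM in c cells and at no more than 0.112 CPM in p cells (adjusted p = 0.615 with edgeR and 1.41e-05 with DESeq2). It does not stand for the list, and the 3 genes that DESeq2 called on the p side are not described.

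Enzymes were a further group among the 25 genes. CTP synthase 1 (*g13797*, scaffold 1730, bases 250396 to 303194, plus strand) makes CTP from UTP. It was at 314 and 999 CPM in c cells and at 172, 129 and 119 CPM in p cells, without overlap (log2 change 2.20 ± 0.49, adjusted p = 0.00648, edgeR). Its model overlaps that of *g13798* on the same strand by 1534 bases. A gene for gamma-butyrobetaine dioxygenase (*g26914*, scaffold 180, bases 44312 to 72614, minus strand), the last enzyme of carnitine synthesis, was at 35.5 CPM in c1 and 407 CPM in c2. It was at 0.101, 34.7 and 0 CPM in p cells, so that c1 was hardly above p2 (log2 change 4.32 ± 1.06, adjusted p = 0.0264, edgeR).

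The ABHD11-like gene *g9729* (scaffold 1062, bases 343158 to 352634, minus strand) was the single one of the 25 with more in c1 than in c2. ABHD11 is a mitochondrial hydrolase in mammals. Levels were 1022 and 929 CPM in c cells and 74.6, 481 and 314 CPM in p cells (log2 change 1.77 ± 0.40, adjusted p = 0.00823, edgeR). The neighbouring *g9728*, another ABHD11 gene 5984 bases away on the same strand, was at 411 and 857 CPM in c cells and at 0.708, 266 and 434 CPM in p cells, and it passed with neither edgeR nor DESeq2. The spider has 49 gene models with this name, 12 of which were tested, and reads shared by close copies could be divided between them. The most abundant copy, *g9727*, was between 2183 and 2978 CPM in all 5 libraries.

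An actin gene and a chaperone gene were high in both groups. The actin *g27982* (scaffold 247, bases 584585 to 589712, plus strand) was at 344 and 1282 CPM in c cells and at 258, 304 and 77.8 CPM in p cells. The c1 level was close to the p libraries, and c2 stood apart (log2 change 1.94 ± 0.44, adjusted p = 0.00823, edgeR). Another actin gene of like name, *g10783*, was at 20.1 and 163 CPM in c cells and at 26.5, 0 and 0.276 CPM in p cells. Of 71 actin and myosin genes tested, *g27982* alone passed, and 16 (22.5%) had both c libraries above every p library, beside 11.3% of all genes. Alpha-actinin (*g25422*), which links actin filaments, was among the 16, at 668 and 655 CPM in c cells and 412, 358 and 370 CPM in p cells (adjusted p = 0.921 with edgeR and 0.0433 with DESeq2).

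Heat shock protein 83 (*g876*, scaffold 278, bases 225846 to 232012, plus strand), the Hsp90 of the fly, had the smallest log2 fold change of the 25, 1.30 ± 0.32 (adjusted p = 0.0236, edgeR). It was at 1318 and 2330 CPM in c cells and at 825, 619 and 761 CPM in p cells. Of 31 heat shock and chaperonin genes it was the single one to pass with edgeR, and 4 passed with DESeq2. The mitochondrial Hsp60 gene *g9894* was at 1115 and 1470 CPM in c cells and at 720, 478 and 620 CPM in p cells, again without overlap (adjusted p = 0.374 with edgeR and 0.000395 with DESeq2). The EF-hand D2 gene *g15167* (scaffold 2051, bases 24032 to 67914, minus strand) codes for a calcium-binding protein that in mammals also binds actin. It was at 14.5 CPM in c1 and 364 CPM in c2, with 1 read in p1 and none in p2 and p3. The c mean was at least 620-fold higher (adjusted p = 0.00848, edgeR), and 96.2% of it lay in c2.

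Of the 25 genes, 9 (36%) had an uncharacterized product or none, against 22.9% of the genes tested and 16.0% of the 3027 tested genes whose mean level was at least that of the lowest of the 25. A set of 3 was without overlap between groups at a high level. The gene *g2628* (scaffold 401, bases 281306 to 358671, plus strand) was at 386 and 852 CPM in c cells and at 26.1, 0.112 and 43.3 CPM in p cells. Its log2 change was 4.64 ± 0.67 (adjusted p = 1.97e-08 with edgeR and 0.1155 with DESeq2). The gene *g22861* (scaffold 12800, bases 1 to 3854, plus strand) was at 151 and 263 CPM in c cells and at 0.202, 0 and 22.4 CPM in p cells (adjusted p = 0.0236, edgeR). The gene model reaches the end of its scaffold, so it may hold only a part of the gene. *g27313* (scaffold 210, bases 131887 to 150604, minus strand) was at 170 and 328 CPM in c cells and at 55.6, 0 and 0 CPM in p cells (adjusted p = 0.0236, edgeR).

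A second set of uncharacterized genes had far more reads in c2 than in c1. *g17735* (scaffold 2643, bases 106096 to 111911, plus strand) was at 18.0 and 378 CPM in c cells and 0 in p cells. Its c mean, carried mostly by c2, was at least 648-fold above the floor (adjusted p = 0.00649, edgeR). *g132* (scaffold 3, bases 2757328 to 2766405, plus strand) was at 25.6 and 274 CPM in c cells and 0 in p cells. Its c mean, again mostly from c2, was at least 490-fold above the floor (adjusted p = 0.0376, edgeR). *g27086* (scaffold 192, bases 88876 to 97918, plus strand) was at 14.7 and 366 CPM in c cells and at 18.5, 0 and 0.0921 CPM in p cells, and its c1 level lay below that of p1. The next gene to *g132*, *g131*, showed the same contrast between the c libraries, with 0.288 CPM in c1, 113 CPM in c2 and 0 in p cells, but did not pass (adjusted p = 0.921, edgeR).

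The remaining uncharacterized genes, *g3783*, *g4763* and *g9243*, had reads in every p library. *g3783* (scaffold 502, bases 689263 to 711233, minus strand) was at 1378 and 2883 CPM in c cells and at 1263, 496 and 270 CPM in p cells (log2 change 1.65 ± 0.31, adjusted p = 0.000207, edgeR). *g4763* (scaffold 590, bases 170255 to 183574, minus strand) was at 959 and 1724 CPM in c cells and at 858, 170 and 128 CPM in p cells (log2 change 1.79 ± 0.36, adjusted p = 0.000997, edgeR). In both genes p1 came within reach of c1, while p2 and p3 were well below. *g9243* (scaffold 1003, bases 78966 to 87736, plus strand) was at 114 and 682 CPM in c cells and at 94.2, 25.5 and 83.6 CPM in p cells (log2 change 2.47 ± 0.62, adjusted p = 0.0334, edgeR). Not counted among the uncharacterized genes, *g27884* (scaffold 242, bases 427645 to 432304, minus strand) carries the plant name cold and drought-regulated protein CORA-like. It was at 443 and 1949 CPM in c cells and at 312, 88.1 and 140 CPM in p cells (log2 change 2.70 ± 0.41, adjusted p = 1.28e-07, edgeR).

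Compared per length of the gene model, with the RPKM values of the authors, which divide the reads by gene length and by library size, the order of the most abundant of the 25 genes differed between the c libraries. In c1 *g3783* was at 917, *g9729* at 859, *g4763* at 828 and *g27884* at 695 RPKM. In c2 *g27884* was at 2988, *g3783* at 1876, *g4763* at 1456 and *g9729* at 763 RPKM. *g4238* was at 340 and 614 RPKM in c1 and c2, and *fuchi* at 280 and 474 RPKM. In p cells *g3783* was the highest of the 25 at a mean of 448 RPKM, and *fuchi* was at 18.5 RPKM.

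The gene with the lowest adjusted p outside the 25 was glycogenin-1 (*g13122*), for the primer of glycogen synthesis. It was at 54.6 and 222 CPM in c cells with at most 1 read in any p library, at least 453-fold higher (adjusted p = 0.0624 with edgeR and 7.44e-09 with DESeq2). The inositol-trisphosphate 3-kinase homologue *g11911* was at 127 and 310 CPM in c cells and at 29.7, 27.7 and 0 CPM in p cells (adjusted p = 0.0666, edgeR), and it was chosen after its values had been seen. A broader count took genes with at least 10 CPM in both c libraries and at most 3 counts in every p library. There were 164 such genes, 6 of them among the 25, and 122 passed with DESeq2. They included the *E75*-like ecdysone response gene *g11022* (55.8 and 137 CPM in c cells, 0 in p cells), the sodium/potassium ATPase subunit gene *g1189* (57.6 and 131 CPM, 0 in p cells) and a proclotting enzyme gene, *g15441* (50.0 and 152 CPM, 0 in p cells). The adjusted p of these 3 was 0.325 to 0.374 with edgeR and at most 2.28e-06 with DESeq2. The reverse count, at least 10 CPM in all 3 p libraries and at most 3 counts in both c libraries, gave 36 genes, none past the threshold with edgeR and all 36 with DESeq2. The counts of 164 and 36 cannot be compared, since their rules ask for different numbers of high and low libraries. Both rules used the values that DESeq2 then tested, so nothing is read from its 122 and 36 calls. Detection differed between libraries too. Of the 6455 genes at 10 CPM or more in p1, 713 had 3 counts or fewer in c1 and 2001 in c2, and of the 7162 such genes in c1, 1470 had 3 counts or fewer in p1.

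The tests did not agree on genes higher in p cells, with 0 by edgeR and 619 by DESeq2. Both c libraries lay below every p library for 502 genes (4.92% of those tested). Of the 10 of these with the lowest edgeR p, which were chosen by the values tested, none passed with edgeR and 8 passed with DESeq2. The lowest p among these was that of *g13321*, named for *cubitus interruptus*, the transcription factor at the end of the Hedgehog pathway in the fly. It was at 570 and 504 CPM in c cells and at 1536, 972 and 862 CPM in p cells (log2 change -1.06 ± 0.36, adjusted p = 0.615 with edgeR and 0.000879 with DESeq2). The p mean was 2.09 times the c mean. Next came *g2532*, nodal modulator 3-like, for a membrane protein linked to Nodal signalling in fish. It was at 35.2 and 8.44 CPM in c cells and at 191, 83.6 and 231 CPM in p cells (adjusted p = 0.644 with edgeR and 0.00146 with DESeq2). The Luc7-like splicing factor gene *g23577* was at 312 and 192 CPM in c cells and at 436, 546 and 901 CPM in p cells (adjusted p = 0.644 with edgeR and 0.00556 with DESeq2).

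Other genes of this side had levels that did not overlap, with adjusted p from 0.716 to 0.921 with edgeR. For the 4 described next it was at most 0.00662 with DESeq2. Carbonic anhydrase 1 (*g10645*), which hydrates CO2, was at 208 and 239 CPM in c cells and at 457, 504 and 613 CPM in p cells. *g11311*, the interferon-related developmental regulator 1, a transcriptional coregulator in mammals, was at 113 and 34.5 CPM in c cells and at 291, 261 and 238 CPM in p cells. The heparan-sulfate 6-O-sulfotransferase gene *g14104*, whose enzyme modifies the sugar chains that bind growth factors, had 1 read in c1 and none in c2. In p cells it was at 91.0, 63.5 and 106 CPM, at least 267-fold higher. The USP6NL-like gene *g12687*, for a regulator of Rab proteins in mammals, was at 5.57 and 0 CPM in c cells and at 53.2, 166 and 84.6 CPM in p cells. The genes *g17630*, *g1260* and *g10519* had no characterized product, with p means of 143, 1408 and 107 CPM and c means of 15.3, 752 and 5.62 CPM.

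Genes with reads in all p libraries and none in c cells had moderate levels. The TSR2 gene *g12715*, for pre-rRNA processing, was at 75.8, 95.2 and 46.0 CPM in p cells and 0 in c cells. Microspherule protein 1 (*g4450*), a chromatin protein, was at 47.5, 84.3 and 59.6 CPM in p cells and 0 in c cells. The chromosome maintenance gene *g1606* was at 56.2, 37.8 and 50.1 CPM in p cells and 0 in c cells. The adjusted p of all 3 was 0.921 with edgeR and at most 4.85e-05 with DESeq2. None of the 10 genes with the lowest p on this side passed at stage 4 or early stage 5 with edgeR.

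**Figure D3:**
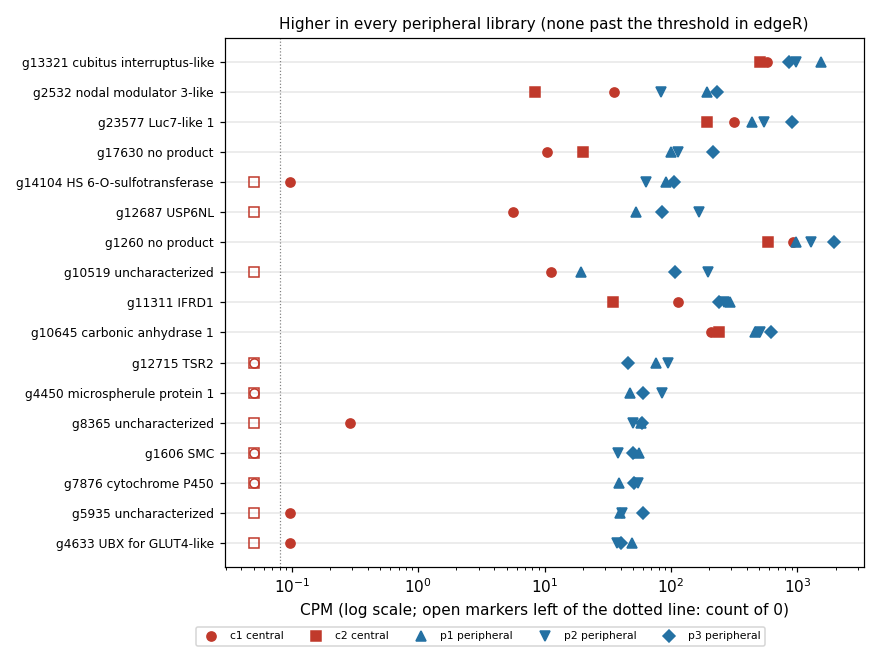
CPM in each library (log scale) of the 10 genes with the lowest p among those higher in every p library, followed by further genes with at least 10 CPM in all p libraries and at most 3 counts in both c libraries. Blue p markers lie right of red c markers in every row, and open markers left of the dotted line stand for a count of 0. None of the genes passed the threshold with edgeR, and 8 of the first 10 did with DESeq2, which tested the values they were chosen by.

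Genes known from the rim of the later germ disc passed neither with edgeR nor with DESeq2 at stage 3. *Pt-hh* (*g4322*) was at 9.90 and 0 CPM in c cells and at 59.9, 72.1 and 0 CPM in p cells, so that p3 had no counts (adjusted p = 0.921, edgeR). *Pt-lab1* (*g7954*), a *labial* homologue of the Hox class, was at 64.5 and 63.6 CPM in c cells and at 211, 88.0 and 140 CPM in p cells (adjusted p = 0.921, edgeR). *Pt-opa* (*g12202*), related to the fly pair-rule gene *odd-paired*, was at 300 and 438 CPM in c cells and at 327, 382 and 96.8 CPM in p cells. In p3, *Pt-hh* was thus without counts while *Pt-lab1* lay above both c libraries. At early stage 5 all 3 genes were higher in p cells, with adjusted p from 0.00171 to 0.0141 (edgeR). *Pt-hh* was there at 0.222 and 6.88 CPM in c cells and at 378 and 186 CPM in p cells. For *Pt-opa* the c-p difference itself differed between stages (interaction adjusted p = 0.0159, edgeR), and for *Pt-hh* and *Pt-lab1* this test gave 0.683 and 0.491. The markers of the embryonic pole, which the study selected on these same libraries, were all 7 higher in both c libraries than in any p library. In the paper's in situ staining at stage 3, *g15167*, *g5118*, *g20850* and *fuchi* also had broad signal on the opposite (abembryonic) side of the embryo. For *g5118* among them the c1 level was 0.384 CPM and the c2 level 207 CPM.

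The study's own selection is no independent evidence for these 5 libraries, since it was made on them together with the i libraries. Of its 10 genes with high levels in c cells, 6 were among the 25, and the other 4 were *g5118*, *g16893*, *g3963* and *g20850*. The *u-shaped* homologue *g16893*, in the fly a partner of GATA factors, was at 0.0961 CPM in c1 and 182 CPM in c2, with 0 in p cells. Of the 5 genes it chose for p cells, none passed with edgeR and 5 with DESeq2. The snRNA-activating protein gene *g7720* was at 74.4, 143 and 0.0921 CPM in p1, p2 and p3, and the macrophage mannose receptor 1 gene *g1424* at 38.1, 0.112 and 93.8 CPM. In each a single p library was near the floor.

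With edgeR, no gene of the Hedgehog, Wnt, BMP and TGF-beta, Notch or FGF and EGF lists passed the threshold, in 5, 14, 22, 15 and 14 genes tested. DESeq2 called 1 gene of the Hedgehog list (*g13321*), 2 Wnt and 1 Notch gene higher in p cells, 1 gene of the FGF and EGF list in each direction, and none of the BMP list. Their median log2 fold changes were -0.69, 0.00, -0.21, -0.92 and -0.18, beside 0.06 for all genes. For the Hedgehog list the summed level was 1094 and 928 CPM in c cells and 2008, 1293 and 1729 CPM in p cells, to which *g13321* contributed most. Suppressor of fused (*g4889*), an inhibitor within the pathway, was at 336 and 343 CPM in c cells and at 261, 147 and 661 CPM in p cells. The Notch pathway transcription factor gene *g15584*, Suppressor of Hairless, was at 168 and 239 CPM in c cells and at 120, 128 and 25.4 CPM in p cells (adjusted p = 0.331, DESeq2). Of the BMP list, the ligand gene *g16925* (bone morphogenetic protein 10-like) was at 128 and 37.1 CPM in c cells and at 34.0, 17.7 and 0.553 CPM in p cells (adjusted p = 0.48, DESeq2). *g15584* and *g16925* do not stand for their lists, whose medians were below 0. The Wnt and Notch genes that DESeq2 called higher in p cells are not described.

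No cell adhesion gene of 39 tested passed with edgeR, while DESeq2 called 2 higher in c cells and 4 higher in p cells. Both c libraries lay above every p library in 11 of 39 genes (28.2%, beside 11.3% of all genes), and the reverse held for none. The median log2 fold change was 0.94. Nothing is read from this share or this median, since a gene such as *g13442* passed the filter through c cells alone. The genes described next were taken from the 11 with both c libraries above every p library. Of them, *g3700*, *g14937* and *g23612* were chosen after their values had been seen. They do not stand for the list, and the 4 that DESeq2 called higher in p cells are not described. Neural-cadherin-like *g3700*, a cell-cell adhesion gene, was at 596 and 692 CPM in c cells and at 583, 334 and 417 CPM in p cells. The integrin beta gene *g14937*, for a receptor of the extracellular matrix, was at 243 and 218 CPM in c cells and at 143, 122 and 174 CPM in p cells. Cadherin-23 (*g13442*) was at 42.3 and 38.4 CPM in c cells and 0 in p cells (adjusted p = 0.921 with edgeR and 0.00739 with DESeq2). The laminin gamma-1 gene *g23612*, for a matrix protein, was at 75.4 and 58.8 CPM in c cells and at 11.8, 46.4 and 0.645 CPM in p cells.

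By their median log2 fold change, the lists of general cell functions were close to even between groups. For 80 cytosolic ribosomal protein genes the median log2 fold change was -0.04 with quartiles of -0.26 and 0.23, and 3 (3.75%) had both c libraries above every p library. Mitochondrial ribosomal proteins, translation factors, the proteasome and histones had medians of 0.09, -0.09, 0.07 and -0.15. Among 60 respiratory chain and ATP synthase genes, 11 (18.3%) were lower in both c libraries than in every p library, beside 4.92% of all genes, and 7 (11.7%) were higher. Among the 11 was the complex I gene *g17844*, at 39.4 and 85.1 CPM in c cells and at 147, 141 and 196 CPM in p cells. It did not pass (adjusted p = 0.921, edgeR). Of 82 cell cycle and replication genes and 20 genes of maternal RNA decay, none passed with edgeR, and DESeq2 called 5 of the first list (2 higher in c cells, 3 in p cells) and 1 of the second, higher in c cells.

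**Figure D4:**
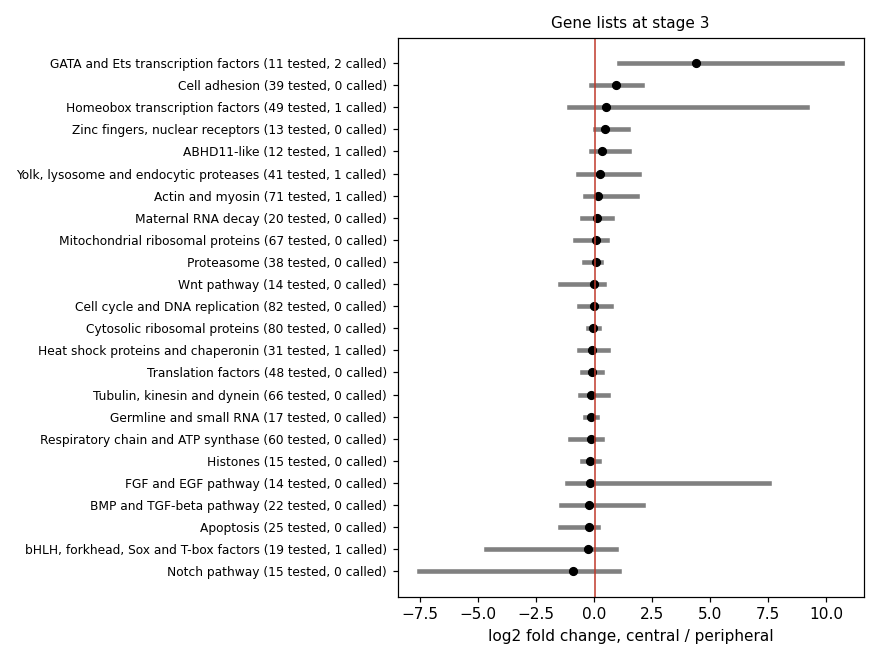
Median (point) and quartiles (bar) of the log2 fold change between c and p cells (horizontal axis) over the tested genes of each list, with the median of all genes as a line at 0.06. The Ets and GATA list has the highest median, 4.38, with 2 of 11 genes past the threshold, and the cytosolic ribosomal protein list lies near the line. Some Ets and GATA genes passed the filter through c cells alone, so nothing is read from that median.

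Markers of other cell types were checked in the same libraries. Germ cell genes were abundant in every library, with a summed level of 12722 and 10589 CPM in c cells and 10653 to 15606 CPM in p cells. The *vasa* homologue *g5162* (DDX4) was at 2307 and 2194 CPM in c cells and at 2968, 2975 and 2450 CPM in p cells, lower in both c libraries (adjusted p = 0.921, edgeR). Of 13 muscle genes 6 were tested and 7 had no counts, and their summed level was 160 and 69.5 CPM in c cells and 26.1 to 181 CPM in p cells. Of 11 blood cell genes 3 were tested and 8 had no counts, with sums of 52.9 and 76.5 CPM in c cells and 0 to 18.3 CPM in p cells. Yolk and lysosomal genes summed to 2109 and 3273 CPM in c cells and 1941 to 2347 CPM in p cells. The part of such cells in the c-p differences was not tested.

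At the later stages the 25 genes were measured in libraries of other mothers, which the stage-3 test had not used. At stage 4, 24 of the 25 were tested and 8 passed, all higher in c cells, where 0.437% of 10074 genes did so. At early stage 5, 24 were tested and 6 passed, again higher in c cells, where 0.77% of 11825 genes did so. Of the 25, 5 passed at both later stages and 16 at neither. Both c libraries lay above both p libraries in 18 of the 25 genes at stage 4 and in 20 at early stage 5, beside 15.2% and 22.3% of all genes tested. The median log2 fold change of the 25 genes was 2.94 at stage 4 and 3.51 at early stage 5, beside 0.07 and 0.18 for all genes. With 1 library left out, a group is a single library that is assumed to vary as the other group does, and fewer calls are to be had from 3 libraries. At stage 4, 2 genes passed without c1, 8 without c2, and none without p1 or without p2. At early stage 5, none passed without c1, c2 or p1, and 1 passed without p2.

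The 5 genes past the threshold at all 3 stages were *g4238*, *g13797*, *g27982*, *g15167* and *g27086*. *g4238* was at 1982 and 515 CPM in c cells at stage 4 and at 364 and 341 CPM at early stage 5, and at no more than 1.11 CPM in any p library of either stage (adjusted p = 3.32e-17 and 0.00113, edgeR). CTP synthase 1 was at 2236 and 1453 CPM against 345 and 621 CPM at stage 4, and at 1134 and 1332 CPM against 238 and 272 CPM at early stage 5. The actin *g27982* reached 5210 and 3335 CPM in c cells at stage 4, against 346 and 373 CPM in p cells. At early stage 5 it was at 2697 and 3969 CPM in c cells and at 17.7 and 116 CPM in p cells. *fuchi* was at 1401 and 659 CPM in c cells at stage 4 and at 34.6 and 446 CPM in p cells (adjusted p = 0.0152, edgeR), and at early stage 5 its adjusted p was 0.0623. The twist-related *g14287* was at 114 and 2.72 CPM in c cells at stage 4 and at 3.78 and 5.87 CPM at early stage 5, with no counts in p cells at either stage.

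Some of the 25 genes had low levels in c cells afterwards. *g8160* was at 6.44 and 10.1 CPM and *g485* at 8.67 and 0 CPM in c cells at early stage 5. The ABHD11-like *g9729* had 1 read over the 8 later libraries, below the filter of the tests within those stages (interaction adjusted p = 1, edgeR). *g3783* was at 171 and 118 CPM in c cells and at 560 and 116 CPM in p cells at stage 4, and at no more than 44.2 CPM in any library of early stage 5. *g4763* was at 39.5 and 11.5 CPM in c cells and at 281 and 80.9 CPM in p cells at stage 4, so that the order of the groups was the reverse of that at stage 3 (adjusted p = 0.262, edgeR). In the stage-3 i cells both genes were abundant, at 1407 to 2139 CPM and 578 to 1241 CPM. The c-p difference itself differed between the stages for 8 of the 25 genes (of all 13306 tested, 0.534%). The 25 were chosen by their stage-3 difference and this test uses the same stage-3 libraries, so nothing is read from the share. Stage and mother cannot be told apart in these comparisons.

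**Figure D5:**
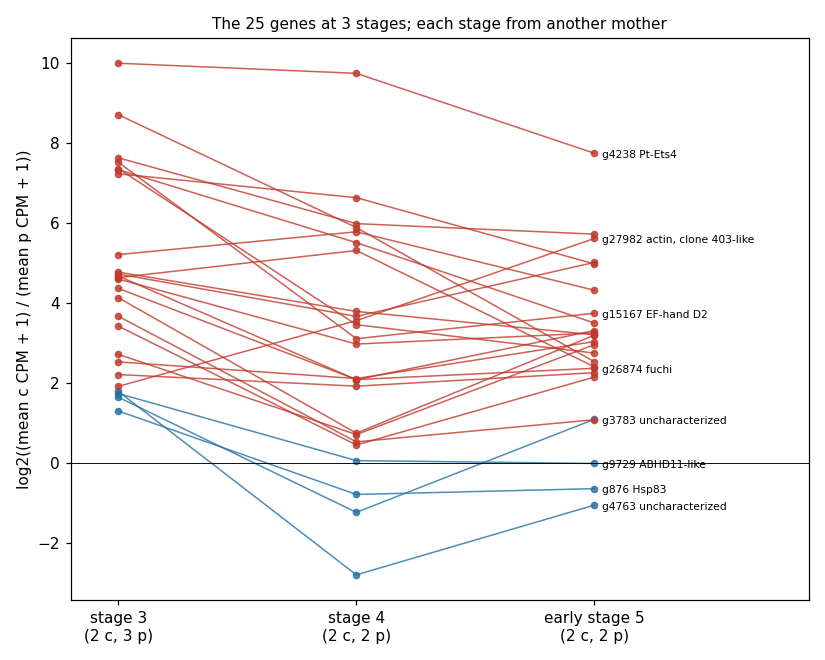
Log2 ratio of the mean c to the mean p level, each with 1 CPM added, for the 25 genes at stage 3, stage 4 and early stage 5 (vertical axis). Each line is a gene, and the blue lines are *g3783*, *g4763*, *g876* and *g9729*, whose ratio at stage 4 was below or near 0. The remaining lines stay above 0 at every stage.

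In the i cells of stage 3, from another mother, 9 of the 25 genes had 3 counts or fewer in every library. Both c libraries were above every i library for 19 genes. The mean i level lay between the c and p means for 11 genes and below the p mean for 11, and for none was it above the c mean. Among genes between them, *g876* had 1012, 1221 and 864 CPM in i cells. *fuchi* was below, since it had no counts in i cells. For the i cells the region was confounded with the mother, and these cannot be told apart.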

How the data were processed

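The authors isolated cells with glass capillaries, made stranded poly(A) libraries, trimmed single-end reads, aligned them to Ptep_1.0 and counted reads on AUGUSTUS models. The count table they deposited gives the reads on each gene model, not normalized, and every test was run on it. The authors also deposited RPKM values, used here only to compare levels between genes. Rows with no gene name (5) were left out (0% of the counts at stage 3, 8.18% to 8.85% at early stage 5). Depth is given with the results, and 0 columns were left unmatched.

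The tools were edgeR 4.0.16 with limma 3.58.1, and DESeq2 1.42.0 as an alternative, in R 4.3.3. A gene that reached 1 CPM in any library of a comparison was tested by edgeR's quasi-likelihood test after TMM normalization, and p-values were adjusted over all of these genes by the Benjamini-Hochberg method (threshold 0.05, prior count 0.125). CPM are TMM-normalized. Differences between stages were tested by the interaction of region with stage. Scripts were tested on simulated data.

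The members, lists and tests were chosen with earlier results of these data known. Lists were made by words in the deposited product names, with false matches removed by name, and got no test. The genes named were all those past the threshold, the 10 with the lowest p among genes higher in every p library, up to 8 genes with reads in 1 group alone, the genes the study selected, its regional and GATA genes, up to 4 genes per list by p, and the 5 with the highest level. Of these, the text gives those that describe a result. Genes outside this rule, chosen after their values were seen, were *g11911*, *g131*, *g9172*, *g9727*, *g25422*, *g3700*, *g14937*, *g23612* and *g17844*. Alternatives covered the test, normalization, filter, prior count, the libraries in the fit, the replicate number as a block and each library left out.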

Additional observations from a re-analysis of the deposited data

Results flagged for a closer look

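Between stages 3, 4 and early 5, the size of the c-p difference itself was not the same for 8 of the 25 genes by the interaction test (edgeR's quasi-likelihood test, Benjamini-Hochberg adjustment over 13306 genes, of which 0.534% passed). These were *g876* (adjusted p = 8.44e-17), *g27982* (2.73e-15), *g15167* (1.26e-12), *g2672* (4.17e-12), *g4763* (0.000155), *g27884* (0.000623), *g3783* (0.00363) and *g26874* (0.0217). Heat shock protein 83 (*g876*) was higher in both c libraries at stage 3, and at early stage 5 was at 6521 and 5233 CPM in c cells and at 10827 and 7358 CPM in p cells. The actin *g27982* went the other way, with a log2 fold change that was 1.94 at stage 3 and 3.57 at the next stage, then 5.62 at early stage 5. EF-hand D2 (*g15167*) had a single read in p cells at stage 3, and 29.4 and 117 CPM in p cells at stage 4. Fibroleukin-like *g2672* had none in p cells at stage 3, and 0 and 79.8 CPM at stage 4. With edgeR's likelihood ratio test 2 of the 8 genes passed, *g15167* (0.000238) and *g2672* (0.000111). Stage and mother cannot be told apart. The 25 genes were chosen by their stage-3 difference and the interaction test uses the same stage-3 libraries, so nothing is read from the share of 0.534%.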

How the results depend on the processing

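The 25 genes kept their direction under all 16 alternatives that gave a value, and 4 (*g4238*, *g26874*, *g2628*, *g14287*) passed with each library left out. Against 25 genes higher and 0 lower in c cells, the likelihood ratio test gave 14 (11 of the 25 among them), DESeq2's Wald test 313 higher (11 of the 25 among them, 1 of the 25 with no adjusted p) and 619 lower, a filter of 10 counts in 2 libraries 10, and all 13 c and p libraries 69 higher and 2 lower. Leaving out 1 library gave 4 to 32 genes higher in c cells and 0 to 1 higher in p cells. With the replicate number as a block, 0 genes passed in either direction at stage 3. Of the 25 genes, 2 then passed at stage 4, and at early stage 5 there were 0. Deviations of same-numbered libraries had r of 0.003 and 0.019 across 7083 genes. The deviations of c1 and c2 mirror each other, so r cannot show whether same-numbered libraries were paired. The cause of these shifts was not tested. At stage 4, 8 genes became 3 by the likelihood ratio test and 0 to 8 with 1 library left out. At early stage 5, 6 became 16 by the likelihood ratio test, 12 by DESeq2 and 0 to 1 with 1 library left out. The interaction gave 8 genes, and 2 by the likelihood ratio test. Lists by product name with a passing gene numbered 7, against 2 under the filter of 10 counts in 2 libraries and 2 to 6 with 1 library left out. Without c1 the median log2 fold change of all genes was -0.57, against 0.06. The lowest mean c level among the 25 was 150 CPM, where a count of 0 allows at most 0.362 CPM.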
